A study of Mus musculus with 6 samples.

Results

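This account concerns 42 genes of the solute carrier (Slc) superfamily that move nutrients, ions and metals across the intestinal epithelium, measured in the jejunum of irradiated mice. Members were found on the array as all non-control spots whose gene name was on a list picked by function, and they were grouped by substrate. All 42 names were present among the 36163 gene names of the array, on 52 probes. There were 34 genes with 1 probe, 6 with 2 and 2 with 3. The filter on dim probes, which asks for a signal well above background on 3 or more of 6 arrays, kept every one of the 52 probes.

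Absorptive enterocytes line the villi and carry different transporters on their brush border, which faces the gut lumen, and on their basolateral side, which faces the blood. Many brush-border carriers draw a solute into the cell together with sodium or protons, and some of the proton gradients they use are kept up by sodium-proton exchangers. The same solute then leaves through basolateral carriers that often work as facilitators or exchangers. The cells of the villus arise from dividing crypt cells, which are among the cells most sensitive to ionizing radiation.

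The arrays came from 6 male C57BL/6J mice, each given the compound VND3207 or its vehicle into the stomach and then irradiated. The VND3207 group was 3 mice given 100 mg/kg, and the vehicle group was 3 mice given the same volume without the compound. Irradiation with 9 Gy followed after 0.5 h in both groups, and the jejunum was taken 6 h after it. No unirradiated jejunum was analysed here, so the comparison is between drug and vehicle in irradiated tissue only. Each mouse gave 1 array with 1 colour channel (Cy3). Ages were not given in the sources used here.

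The share of spots well above background was 66.7% to 70.0% in vehicle mice and 58.8% to 61.4% in VND3207 mice, and no spot was saturated. All vehicle arrays were on 1 slide and in 1 scan, and all VND3207 arrays on another slide in another scan, so slide, scan and treatment cannot be told apart in any result below. Of 10 enterocyte markers, 3 (Vil1, Krt20 and Fabp2) were lower with VND3207 by limma, at an adjusted p from 0.0233 to 0.0488, and their differences lay between -0.13 and 0.00 after quantile normalization. The log2 summed signal of the 10 markers ran from 10.89 to 11.17 in vehicle mice and from 10.59 to 10.71 in VND3207 mice. Signals were summed before the log, so Fabp2, Krt20 and Vil1, the brightest of the 10, weigh most in it. Over the 10 markers the median difference was -0.22, with 8 below 0 and Cdh17 (0.04) and Apoa1 (0.03) above. The log2 sum of 5 smooth muscle markers was 6.92 to 7.35 in 5 mice and 4.97 in VND3207 replicate 3. Among markers of other cell types, Lyz1 and Itln1 (2 of 4 Paneth), Pou2f3 (1 of 4 tuft), Pecam1 and Kdr (2 of 5 endothelial) and Cpa1 (1 of 3 pancreatic) were lower, and 0 were called of the goblet, enteroendocrine, crypt, T cell, B cell, macrophage and smooth muscle lists. The other Paneth markers, Mmp7 and Ang4, differed by 0.08 and 0.19, and the other endothelial markers, Cdh5, Eng and Tie1, by 0.35, 0.16 and 0.00, without passing. After quantile normalization Pou2f3, Pecam1 and Kdr were still called, while Lyz1 (-0.33), Itln1 (0.00) and Cpa1 (-2.42) were not. What these differences contribute to the transporter values was not tested. In a piece of whole jejunum, fewer cells of a type and less RNA per cell cannot be told apart.

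No transporter gene passed the test in either direction. Throughout, a value is the log2 processed signal of a probe minus the 75th percentile of its array, and a difference is the mean of the 3 VND3207 mice minus the mean of the 3 vehicle mice, so that a difference of -1 is a 2-fold lower signal. A gene with several probes is represented by the one with the highest mean signal. A probe was called at a Benjamini-Hochberg adjusted p under 0.05 in limma, adjusted over all 36098 tested probes. By this rule 0 of the 42 genes were lower and 0 were higher, with adjusted p from 0.0746 to 0.983, and 4 had an unadjusted p under 0.05 in the same fit. Among 1 representing probe for each gene name, 14.1% were lower and 0.922% higher. The members were mostly bright, with 39 of 42 above the 75th percentile of probe brightness, and among all tested probes that bright 4.57% were lower and 0.697% higher.

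The absence of calls came with intervals of unequal width. The 42 differences ran from -0.81 for Slc13a1 to 0.54 for Slc23a1, with 22 below 0 and 20 above. Their median was -0.03, beside -0.05 over the representing probes of all gene names and 0.01 over the brighter probes. For 32 genes the 95% interval of the difference lay within 1 log2 unit of 0 on both sides, and for 22 it lay within 1.5-fold. For the other 10 it reached beyond 2-fold in at least 1 direction, so the interval does not exclude a change of that size. The median standard deviation within groups was 0.25 for the members, against 0.19 over all gene names and 0.13 over the brighter probes.

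**Figure D1:**
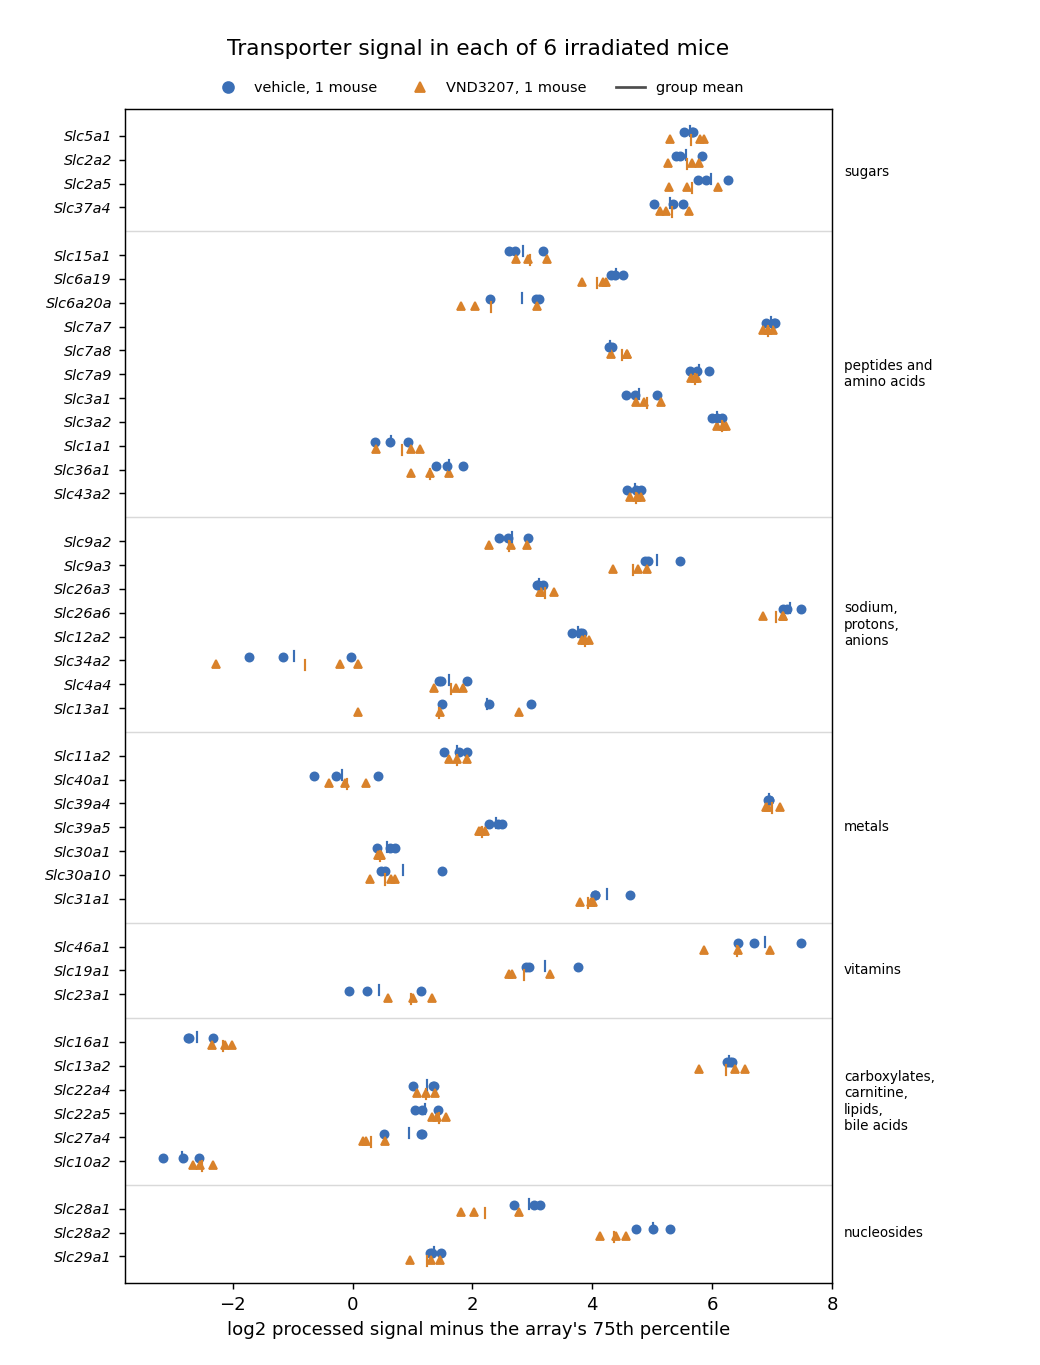
Log2 processed signal minus the array's 75th percentile (horizontal axis) for the representing probe of each of the 42 transporter genes, with 1 point per mouse, circles for vehicle, triangles for VND3207 and a short bar at each group mean. The groups overlap for 38 of the 42 genes, and in the other 4 (Slc6a19, Slc39a5, Slc31a1 and Slc28a2) all VND3207 mice lie below all vehicle mice; horizontal position should not be compared between genes, because brightness also depends on the probe.

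The groups separated for few members. All 3 VND3207 mice lay below all 3 vehicle mice for 4 of the 42 genes, and for 0 genes did they all lie above. Among all gene names 24.4% separated downward and 9.88% upward, and among the brighter probes 14.2% and 13.8%. The 4 genes were Slc6a19, Slc39a5, Slc31a1 and Slc28a2, which carry neutral amino acids, zinc, copper and purine nucleosides.

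**Figure D2:**
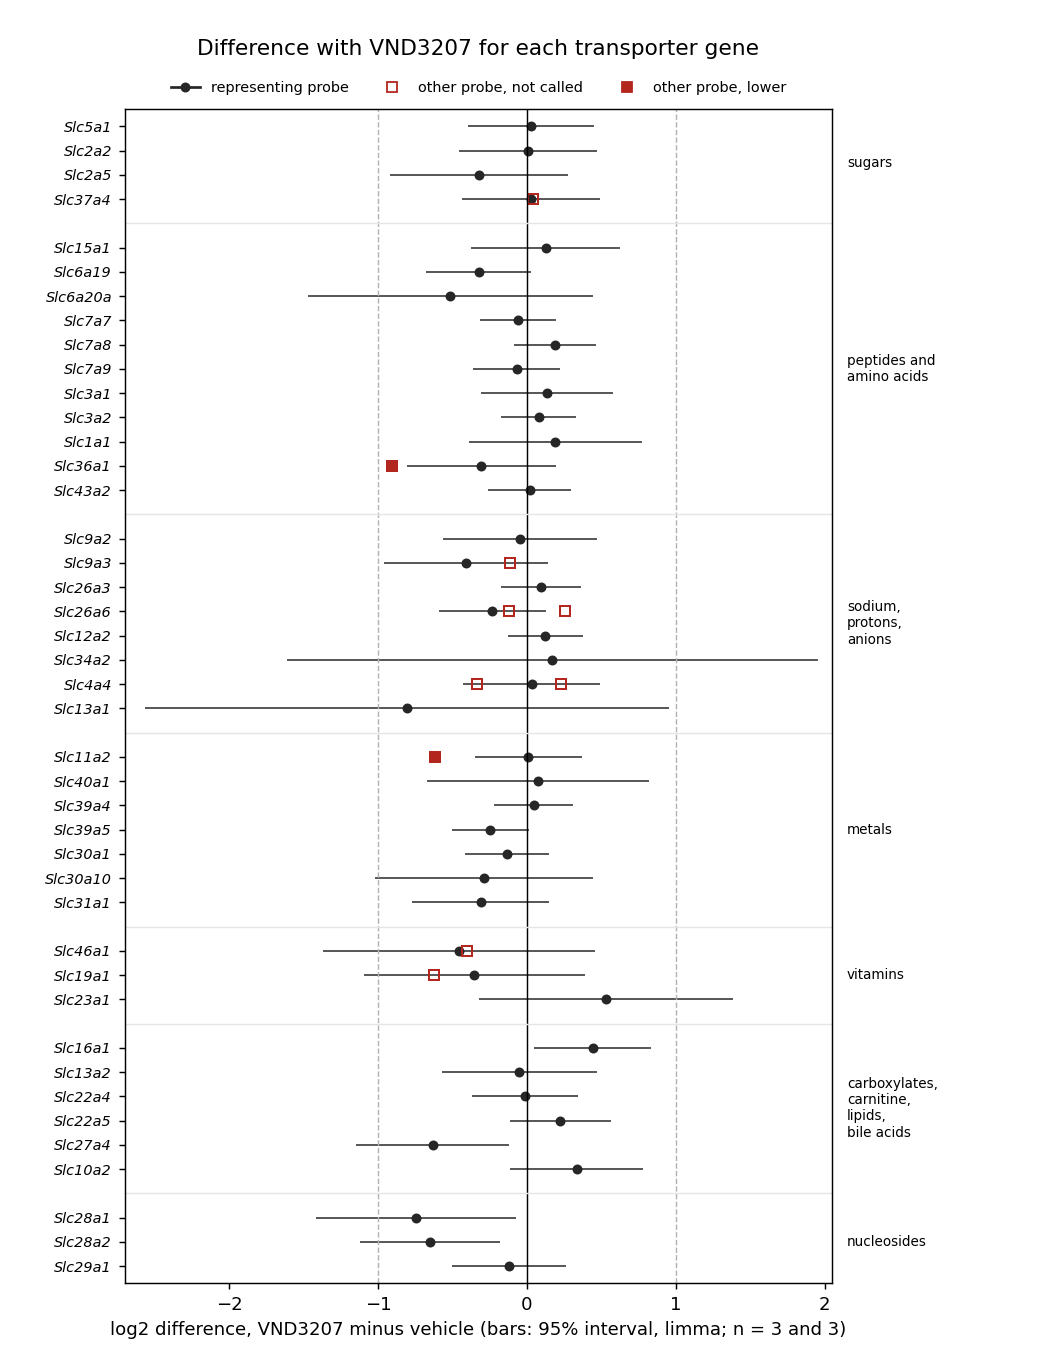
Log2 difference, VND3207 minus vehicle (horizontal axis), for the representing probe of each gene (black point) with its 95% interval from limma (bar, 3 mice a group), and for further probes of the same gene (red squares, filled where called lower); dashed lines mark 2-fold. The intervals of 38 genes cross 0, those of Slc27a4, Slc28a1 and Slc28a2 lie below it and that of Slc16a1 above it, and none of these 4 passed after adjustment over all probes.

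Among the sugar carriers the 4 differences had a median of 0.02 and none passed. Slc5a1 (SGLT1), which takes up glucose and galactose with sodium at the brush border, differed by 0.03 ± 0.17 (SE of limma, n = 3 and 3). The difference was 0.01 ± 0.19 for Slc2a2 (GLUT2), the basolateral exit for hexoses. Slc37a4 encodes the glucose-6-phosphate carrier of the endoplasmic reticulum, and its probes differed by 0.03 and 0.04.

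Slc2a5 (GLUT5), the fructose carrier of the brush border and the sugar carrier with the brightest probe, was at 5.77, 6.26 and 5.90 in vehicle mice 1, 2 and 3. In VND3207 mice it was at 5.58, 5.29 and 6.10. VND3207 mouse 3 lay above 2 of the vehicle mice, so the groups overlapped, and the difference was -0.32 ± 0.24 (limma adjusted p = 0.479).

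The 11 carriers of peptides and amino acids had a median difference of 0.02, with 5 below 0 and 6 above. Slc15a1 (PEPT1), which takes up di- and tripeptides with protons, differed by 0.13 ± 0.20. Slc7a7, the light chain through which cationic amino acids leave the cell, had the brightest probe of the class and was at 7.03, 7.04 and 6.89 in vehicle mice. In VND3207 mice its probe read 6.93, 6.85 and 7.01. The values of the groups were interleaved, with a difference of -0.06 and a 95% interval from -0.31 to 0.19.

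Subunits that work as pairs gave small differences on each side. The heavy chain Slc3a2 (4F2hc), which brings Slc7a7 and Slc7a8 to the basolateral membrane, differed by 0.08 ± 0.10. Slc7a8, a light chain for neutral amino acids, differed by 0.19 ± 0.11. At the brush border, the heavy chain Slc3a1 (rBAT) differed by 0.14 ± 0.18. Its partner Slc7a9, which exchanges cystine and cationic for neutral amino acids, differed by -0.07 ± 0.12. None of the 4 passed, and their 95% intervals all lay within 1.5-fold.

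Slc6a19 (B0AT1), the main sodium-coupled carrier of neutral amino acids, was at 4.51, 4.31 and 4.38 in vehicle mice and at 4.18, 3.83 and 4.23 in VND3207 mice. All 3 treated mice lay below all 3 controls, at a difference of -0.32 ± 0.14 that did not pass (limma adjusted p = 0.214). Slc6a20a, which carries proline and other imino acids, varied more between mice and differed by -0.51 ± 0.39. Slc1a1 (EAAC1), a glutamate and aspartate carrier, differed by 0.19 ± 0.24. The basolateral facilitator Slc43a2 (LAT4) differed by 0.02 ± 0.11.

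Slc36a1 (PAT1), a proton-coupled carrier of small amino acids, was read by 2 probes that differed in call. The start of the called one is shown, 5′ to 3′, bases 1 to 30 of 60, with position and sequence from the array files. It is not the representing probe and lies at chr11:55046103-55046162 on the plus strand of mm9, from base 1544 of the transcript that the array design names.
Slc36a1 called probe: gcgactcctctaccaattccaccagtgcct

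On the representing probe Slc36a1 was at 1.57, 1.85 and 1.38 in vehicle mice and at 0.98, 1.30 and 1.61 in VND3207 mice. These groups overlapped, with a difference of -0.31 ± 0.20 (limma adjusted p = 0.411). On the other probe it was at -1.74, -1.57 and -1.89 in vehicle mice and at -2.74, -2.75 and -2.44 in VND3207 mice. There all treated mice lay below all controls and the probe was called lower, at -0.91 ± 0.14 or 1.88-fold (limma adjusted p = 0.00906). A lower call was made for 14.6% of all tested probes but only 4.57% of those above the 75th percentile of brightness. Lower calls were thus more frequent among dimmer probes, such as this one. This probe was called in 13 of 15 other settings, among them quantile normalization (-0.72, limma adjusted p = 0.0274). With a correction of each array for trends in spot position, brightness and GC content, its difference was -0.47 and no longer passed (limma adjusted p = 0.0875).

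The 8 carriers of sodium, protons and anions had a median difference of -0.01, with 4 on each side of 0. The brush-border sodium-proton exchangers Slc9a2 (NHE2) and Slc9a3 (NHE3), which absorb sodium and acidify the cell surface, differed by -0.05 ± 0.21 and -0.41 ± 0.22. A second probe of Slc9a3 differed by -0.11 ± 0.36. Slc26a3, which exchanges luminal chloride for bicarbonate, differed by 0.09 ± 0.11. Slc12a2 (NKCC1), which loads cells with chloride for secretion, differed by 0.12 ± 0.10. None of these passed.

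Slc26a6 (PAT1 of the anion exchangers), which trades chloride for bicarbonate and oxalate, had the brightest probe of the class, at 7.18, 7.48 and 7.25 in vehicle mice and 6.85, 7.18 and 7.18 in VND3207 mice. The groups overlapped slightly, at a difference of -0.23 ± 0.14. Its other probes differed by 0.26 ± 0.17 and -0.12 ± 0.14, so the sign was not shared. None of the 3 probes passed, with limma adjusted p from 0.378 to 0.667. The array files place the probe at -0.12 at chr9:108763641-108763700, apart from the others at 108814756-108814815 and 108815322-108815380. Whether all of them read the same gene was not checked.

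Slc4a4 (NBCe1), the sodium-bicarbonate cotransporter of the basolateral side, was also read by probes of mixed sign. The representing probe was at 1.90, 1.48 and 1.45 in vehicle mice and at 1.84, 1.37 and 1.73 in VND3207 mice. A second was at 1.63, 1.1 and 1.14 and at 1.73, 1.20 and 1.64. The remaining probe, dim and well above background in only 2 of the VND3207 mice, was at -4.07, -5.17 and -4.32 and at -4.91, -4.98 and -4.66. The groups overlapped on every probe, and the differences were 0.03, 0.23 and -0.33.

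Slc34a2 and Slc13a1 had the widest intervals of all members. Slc34a2 (NaPi-IIb), the sodium-phosphate cotransporter of the brush border, was at -0.03, -1.73 and -1.16 in vehicle mice and at -0.21, 0.09 and -2.28 in VND3207 mice. Slc13a1 (NaS1), the sodium-sulfate cotransporter, was at 1.49, 2.98 and 2.27 in vehicle mice and at 0.09, 1.46 and 2.77 in VND3207 mice. In both genes the mice of 1 group spanned more than the group means were apart. The difference was 0.17 for Slc34a2 and -0.81 for Slc13a1. Its 95% interval ran from -1.60 to 1.95 for Slc34a2 and from -2.56 to 0.95 for Slc13a1, so these data leave the size of any change in either gene unresolved.

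The 7 carriers of metals had a median difference of -0.13, with 4 below 0. Slc39a4 (ZIP4), the zinc importer of the brush border, had the brightest probe and was at 6.94, 6.95 and 6.94 in vehicle mice and at 6.89, 7.14 and 6.94 in VND3207 mice. The mice lay close together in both groups, with a difference of 0.05 and a 95% interval from -0.21 to 0.31. Slc39a5 (ZIP5), a basolateral zinc importer, was at 2.49, 2.43 and 2.28 and at 2.22, 2.10 and 2.14. All treated mice lay below all controls for Slc39a5, at -0.24 ± 0.10 (limma adjusted p = 0.196).

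The zinc exporter Slc30a1 (ZNT1) differed by -0.13 ± 0.11. Slc30a10, a manganese exporter, differed by -0.29 ± 0.30. Slc31a1 (CTR1), the high-affinity copper importer, was at 4.04, 4.05 and 4.63 in vehicle mice and at 3.80, 3.98 and 4.0 in VND3207 mice. Its groups did not overlap but were almost in contact, with vehicle mouse 3 apart from the rest, and the difference of -0.31 ± 0.19 did not pass (limma adjusted p = 0.364). Slc40a1 (ferroportin), through which iron leaves the cell, differed by 0.07 ± 0.30.

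Slc11a2 (DMT1), which takes up ferrous iron with protons, was the other gene whose probes differed in call. Its probes start far apart by the transcript positions of the array design and are shown for that reason, 5′ to 3′ on the minus strand of mm9. The length of the transcript was not checked. The representing probe, at chr15:100218333-100218392, starts at base 2961 of the transcript, and its bases 26 to 55 are given, with the hexamer AATAAA in capitals. This hexamer is the common signal for polyadenylation, found near the 3′ end of many messenger RNAs. The other probe, at chr15:100240516-100240575, starts at base 253 and is given whole.
Slc11a2 representing probe: catccttgttatAATAAAgttcatgcttaa
Slc11a2 other probe: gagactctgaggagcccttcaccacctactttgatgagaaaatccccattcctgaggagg

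On the representing probe Slc11a2 was at 1.52, 1.92 and 1.77 in vehicle mice and at 1.60, 1.74 and 1.91 in VND3207 mice. The groups were interleaved, at a difference of 0.01 and a 95% interval from -0.34 to 0.36. On the probe nearer the 5′ end it was at -1.84, -1.74 and -2.0 in vehicle mice and at -2.69, -2.39 and -2.36 in VND3207 mice. All treated mice lay below all controls and this probe was called lower, at -0.62 ± 0.13 or 1.53-fold (limma adjusted p = 0.0291). The call was lost after quantile normalization (limma adjusted p = 0.0945) and after the trend correction, where the difference was -0.14 (limma adjusted p = 0.544). It was also lost without vehicle replicate 1 or 2 and without VND3207 replicate 1 or 2, at limma adjusted p from 0.0672 to 0.105.

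The hexamer AATAAA was present on the printed strand of 11 of the 52 member probes (21.2%), against 10.1% of all 55681 non-control probes of 60 bases. Its reverse complement TTTATT was in 1 member probe (1.92%) and 3.74% of all probes. A match describes the probe and was not checked as a working signal.

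**Figure D3:**
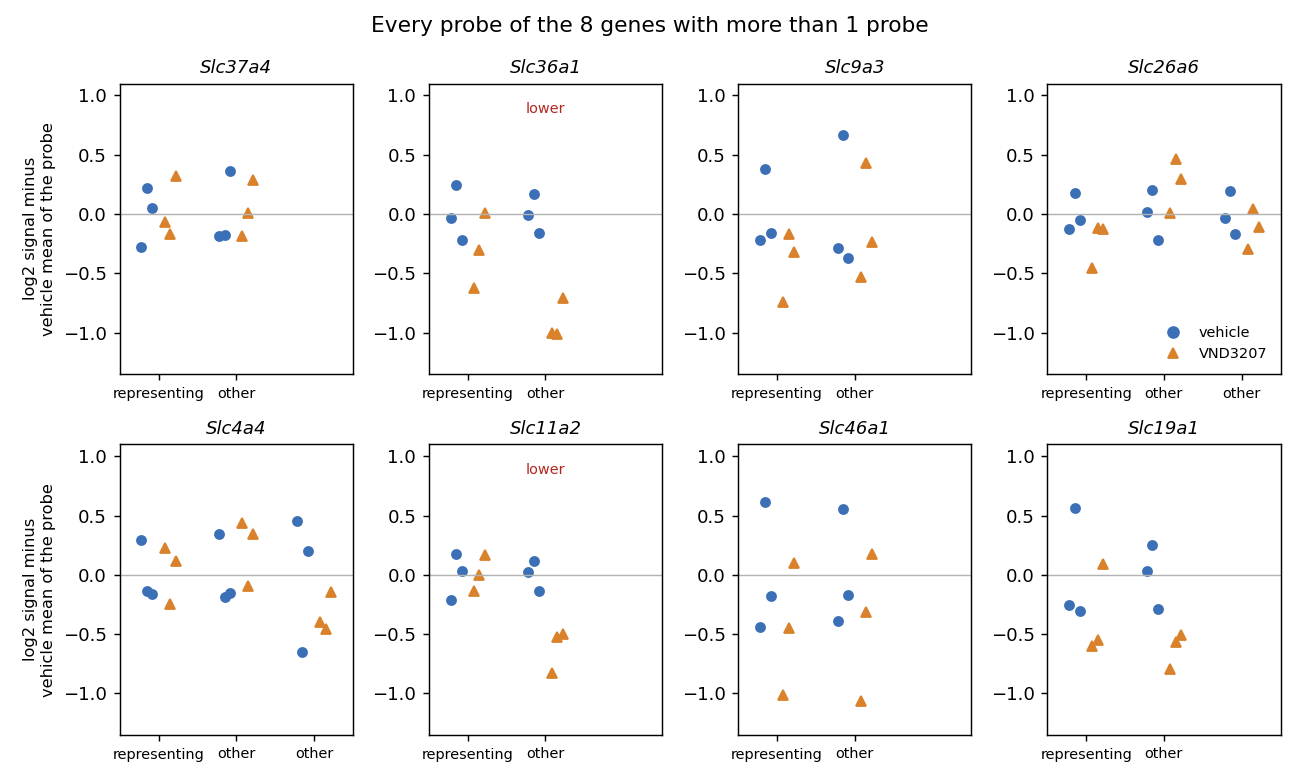
Log2 signal minus the vehicle mean of the same probe (vertical axis) for every probe of the 8 genes read by more than 1 probe, with 1 point per mouse, circles for vehicle and triangles for VND3207; the representing probe stands first. The word "lower" marks the 2 called probes, of Slc36a1 and Slc11a2, in each of which all VND3207 points lie below all vehicle points while the points of the representing probe overlap.

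Over every probe rather than 1 per gene, 2 of the 52 were lower and 0 higher, beside 14.6% and 0.925% of all tested probes. The groups separated downward on 7 member probes and upward on 0, beside 24.9% and 9.41% of all tested probes. Of the 52, 43 were brighter than the 75th percentile of probes. Among all tested probes that bright, 4.57% were lower and 0.697% higher, and 14.2% separated downward and 13.8% upward. Both called probes were dim, near the 62nd percentile of probe brightness, while their genes' representing probes were brighter. Among dimmer probes lower calls were more frequent than the 14.6% over all tested probes. Of the 8 genes with several probes, 5 had differences of 1 sign and Slc26a6, Slc4a4 and Slc11a2 had both signs. How the probes of a gene relate to its transcript isoforms was not tested.

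All 3 vitamin carriers had wide intervals, each reaching beyond 2-fold. Slc46a1 (PCFT), the proton-coupled folate carrier of the upper small intestine and the brightest of the 3 by probe, was at 6.44, 7.49 and 6.70 in vehicle mice and at 5.87, 6.43 and 6.97 in VND3207 mice. Its second probe was at 5.69, 6.63 and 5.90 and at 5.01, 5.76 and 6.25. Both probes placed the mice in nearly the same order, with vehicle mouse 2 highest and VND3207 mouse 1 lowest, and the differences were -0.45 ± 0.37 and -0.40 ± 0.38.

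Slc19a1 (RFC1), the reduced folate carrier, differed by -0.35 ± 0.30 on its representing probe. On its other, dim probe it was at -2.14, -1.92 and -2.46 in vehicle mice and at -2.97, -2.74 and -2.68 in VND3207 mice. That probe separated the groups at -0.62 ± 0.17 without passing (limma adjusted p = 0.0596). It passed in 1 of 15 other settings, without vehicle replicate 3 (-0.77, limma adjusted p = 0.0376). After the trend correction its difference was -0.18 (limma adjusted p = 0.531). Slc23a1 (SVCT1), which takes up vitamin C with sodium, had the highest difference of all members at 0.54 ± 0.35, and it did not pass (limma adjusted p = 0.400).

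The 6 carriers of carboxylates, carnitine, lipids and bile acids had a median difference of 0.11, with 3 on each side of 0. Slc13a2 (NaDC1), which takes up citrate and succinate with sodium, had the brightest probe and was at 6.24, 6.29 and 6.33 in vehicle mice and at 6.39, 5.77 and 6.55 in VND3207 mice. The treated mice spread on both sides of the controls, at a difference of -0.05 ± 0.21. The carnitine and organic cation carriers Slc22a4 (OCTN1) and Slc22a5 (OCTN2) differed by -0.01 ± 0.14 and 0.23 ± 0.14. Slc10a2 (ASBT), the bile acid carrier known mainly from the ileum, differed by 0.34 ± 0.18.

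Slc27a4 and Slc16a1 had the lowest unadjusted p of this class and were chosen for full values after these were seen. Slc27a4 (FATP4), which activates and takes up long-chain fatty acids, was at 1.14, 1.15 and 0.53 in vehicle mice and at 0.17, 0.54 and 0.23 in VND3207 mice. Vehicle mouse 3 fell among the treated mice, and the difference of -0.63 ± 0.21 or 1.55-fold did not pass (limma adjusted p = 0.106). Without vehicle replicate 3, the mouse that fell among the treated mice, the difference was -0.84 and passed (limma adjusted p = 0.0325). Slc27a4 passed in only this 1 of the 16 other settings tried, where limma adjusted p reached up to 0.412. Slc16a1 (MCT1), which carries lactate and short-chain fatty acids with protons, was at -2.74, -2.33 and -2.73 and at -2.01, -2.34 and -2.12. Vehicle mouse 2 and VND3207 mouse 2 were nearly level, and the difference of 0.44 ± 0.16 did not pass (limma adjusted p = 0.136). Over the 16 other settings the Slc16a1 difference stayed between 0.35 and 0.66. It passed in 0 of them, with limma adjusted p from 0.0511 to 0.326. Its probe was dim, at the 61st percentile of probe brightness.

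The nucleoside carriers had the lowest median difference of the classes, -0.65 over 3 genes, and none passed. Nucleosides from digested nucleic acids enter enterocytes through the sodium-coupled Slc28 carriers and leave through equilibrative Slc29 carriers. The probes of both Slc28 genes are shown because these genes had the lowest differences after Slc13a1; both are on the plus strand of mm9. The Slc28a1 probe is at chr7:88315243-88315302, from base 2786 of its transcript, and its bases 24 to 53 are given with AATAAA in capitals. The Slc28a2 probe is at chr2:122286721-122286779, from base 3758, and its bases 1 to 30 are given.
Slc28a1: ctcccaactaaaAATAAAgtataacttaaa
Slc28a2: gtgtaggagtggatgtgaggggagatattt

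Slc28a2 (CNT2), which prefers purine nucleosides, was at 5.02, 5.30 and 4.73 in vehicle mice and at 4.12, 4.39 and 4.57 in VND3207 mice. All treated mice lay below all controls, at -0.65 ± 0.19 or 1.57-fold (95% interval -1.11 to -0.19), and its limma adjusted p of 0.0746 was the lowest of the 42 genes. It passed with normexp background correction (-0.72, limma adjusted p = 0.0459) and with a robust variance trend (limma adjusted p = 0.0421), but in none of the other 14 settings tried. Over all 16 its difference stayed between -0.79 and -0.51.

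Slc28a1 (CNT1), which prefers pyrimidine nucleosides, was given in full after its values were seen. It was at 3.02, 3.13 and 2.70 in vehicle mice and at 2.03, 1.80 and 2.78 in VND3207 mice. VND3207 mouse 3 lay within the range of the controls and the other 2 lay below it, at a difference of -0.74 ± 0.27 or 1.68-fold (limma adjusted p = 0.142). Without VND3207 replicate 3, the mouse within the control range, the difference was -1.03 and passed (limma adjusted p = 0.0178). Slc28a1 passed in only this 1 of the 16 other settings tried, where limma adjusted p reached up to 0.336. VND3207 replicate 3 was also the mouse with low smooth muscle markers, and any link with Slc28a1 was not tested. Slc29a1 (ENT1), the equilibrative carrier, differed by -0.12 ± 0.15 (limma adjusted p = 0.685).

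The members differed widely in how far mice of 1 group lay apart. The standard deviation within groups ran from 0.08 to 1.1. The 10 genes that varied most, a number chosen after the values were seen, were Slc34a2, Slc13a1, Slc6a20a, Slc46a1, Slc23a1, Slc40a1, Slc19a1, Slc30a10, Slc28a1 and Slc2a5. Over the 6 mice Slc13a1 spanned 7.40-fold and Slc34a2 5.17-fold. Slc46a1 spanned 3.08-fold and Slc6a20a 2.48-fold.

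The same mice tended to stand out. In 7 of these 10 genes vehicle mouse 2 was the highest of its group and VND3207 mouse 3 the highest of its own. Over all 42 genes each of these mice was highest in 21, and both were in 14. Vehicle mice 1 and 3 were highest in 13 and 8, and VND3207 mice 1 and 2 in 12 and 9. Some mouse of each group is always highest and no expected share was computed, so these counts are a description only. Slc34a2, Slc1a1 and Slc29a1 ran the other way, with vehicle mouse 2 and VND3207 mouse 3 lowest in their groups. Over all tested probes the deviations of these 2 mice from their group means correlated at 0.304. Their standing out together is therefore not shown to be particular to transporters. Without these 2 mice, a choice made after seeing the values, 0 of the 42 genes were lower and 0 higher.

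**Figure D4:**
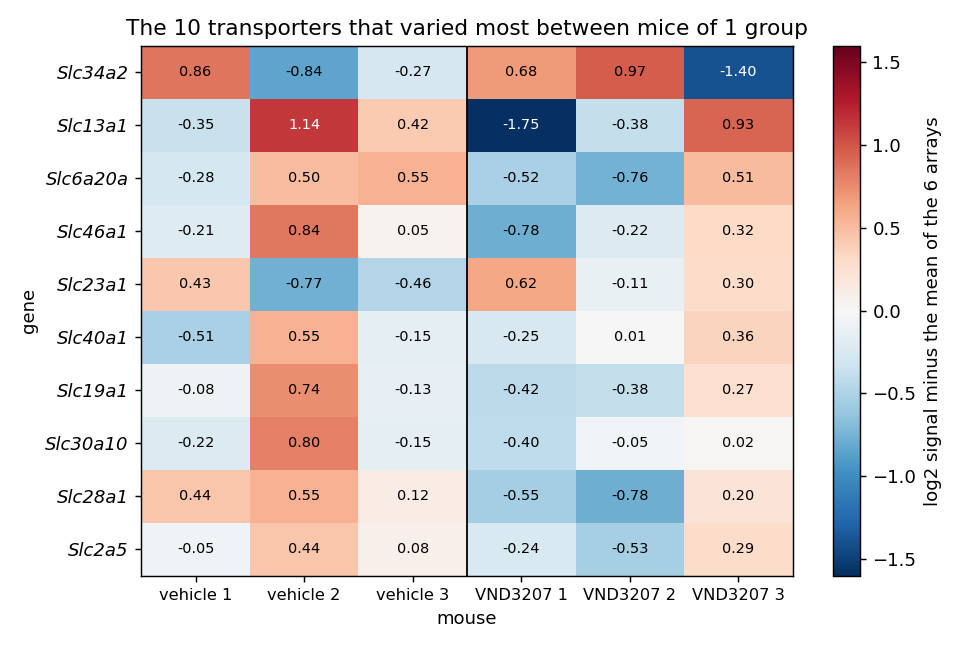
Log2 signal minus the mean of the 6 arrays (colour and printed number) for the 10 transporter genes with the largest standard deviation within groups (vertical axis) in each mouse (horizontal axis), with a line between the vehicle and VND3207 mice. Vehicle mouse 2 and VND3207 mouse 3 are both the highest of their group in 7 of the 10 genes, and in Slc34a2 both are the lowest.

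Other genes of intestinal transport were taken from lists picked by function, and 62 of them were measured. Their median difference was -0.03, with 35 below 0. Of the 62, 3 were lower and 0 higher, beside 14.1% and 0.922% of the representing probes of all gene names. Among all tested probes brighter than the 75th percentile, 4.57% were lower. Of the 3 lower genes, Trpv6 and Atp7b are described.

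Trpv6, the calcium channel of the brush border, was at -3.16, -3.09 and -3.01 in vehicle mice and at -4.24, -4.18 and -4.0 in VND3207 mice. The groups did not overlap, and the difference of -1.05 ± 0.11 or 2.07-fold passed (limma adjusted p = 0.00303). Trpv6 was called in 15 of 16 other settings, among them quantile normalization (-0.73, limma adjusted p = 0.0121). Only after the trend correction did it shrink to -0.43 without passing (limma adjusted p = 0.0716). Atp7b, a copper-transporting ATPase, was lower by the same test at -0.65 ± 0.14 (limma adjusted p = 0.0238), and it was called in 6 of 16 other settings. Both probes were dim, at the 51st and 59th percentile of probe brightness. Lower calls were more frequent among dimmer probes than the 14.6% over all tested probes.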

How the data were processed

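Agilent Feature Extraction 10.7.1.1 wrote the scanner files, per the file headers. Of the deposited intensity columns, the processed Cy3 signal was used. The deposited table of log2 values was used only as an alternative. How it was made is not given in the sources used here, so the method that scaled its arrays is not known. Its columns share a median of 6.05 and a 75th percentile of 9.41 to 9.42. They correlate with the log2 signals at r from 0.997 to 1.000. Probe positions are those of mm9 in the files, and no annotation of that build was used, so exons and UTRs are not named. There were 0 value columns that matched no sample.

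Control spots and outlier spots were left out, the spots of a probe were averaged, and the 75th percentile of 59305 non-control spots was subtracted from the log2 signal of each array. Of 55681 probes, 36098 were well above background on at least 3 of 6 arrays and were tested. Group was the only term in limma 3.58.1 (lmFit and eBayes, 2-sided, R 4.3.3). Errors are moderated standard errors. The code was tested on simulated data.

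All members were named with the difference of the representing probe. Full values were due for genes with a called probe, the brightest probe of each class, and genes whose probes differed in call, or in sign with a difference over 0.3. Other transport genes and markers were named when called, except 1 result that is not reported here. The members and lists were chosen with earlier results of these data known. Of 68 transport symbols listed, older synonyms included, 62 were on the array. The alternatives were the deposited table, normexp (offset 50), quantile normalization, a trend correction with mgcv 1.9.3, no filter or all 6 arrays above background, 1 probe per gene name, a robust variance trend, the replicate number as a block and each array left out. The final form of the trend correction was settled after earlier forms shifted all probes together, so it was chosen after seeing the data.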

Additional observations from a re-analysis of the deposited data

How the results depend on the processing

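Precision is limited by 3 mice a group, and fewer spots were well above background on the VND3207 arrays. Slide as a block could not be fitted, because each slide holds 1 group. The count of 42 member genes lower, 0 as reported, was 1 with normexp background correction and 1 with a robust variance trend (Slc28a2 in both), and ranged from 0 to 1 when 1 mouse was left out. The count higher stayed at 0 in all settings. Of the member probes, 2 were lower as reported, 1 after quantile normalization, 1 with the deposited table, 0 after the trend correction, and 1 to 4 when 1 mouse was left out. The other transport genes lower numbered 3 as reported and 1 after the trend correction. The sign of the difference changed in 10 of the 42 genes under the trend correction and in 0 to 7 under the other settings, none of them called.

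Over all tested probes 5258 were lower and 334 higher, so that 5.97% of calls were higher. Quantile normalization gave 3257 and 852 (20.7%), the values deposited as log2 gave 3176 and 919 (22.4%), the trend correction 2314 and 962 (29.4%), and normexp 2832 lower. Requiring all 6 arrays above background gave 2921 lower, and no filter 662 higher. Leaving out 1 mouse gave 2966 (without vehicle replicate 2) to 5070 lower and 126 (without VND3207 replicate 1) to 287 higher. Without vehicle replicate 2 and VND3207 replicate 3, an alternative chosen after seeing the data, 2775 were lower, 91 higher, and 1 member probe lower. The deposited table moved the median of all probes from -0.06 to 0.05. The cause of these shifts was not tested.

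With the replicate number as a block, 3410 probes were lower and 143 higher, and 0 member probes were lower (Slc36a1 at limma adjusted p = 0.0539 and Slc11a2 at 0.0822). The deviations of same-numbered mice from their group means correlated at 0.126, -0.110 and -0.0507. For mice with different numbers the correlations ran from -0.256 to 0.304. These values cannot decide whether the numbers pair the mice, because the deviations within a group are tied together by its mean.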

Other observations

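A few transport genes outside the 42 also varied strongly between mice of 1 group and are given as values, chosen after these were seen. Slc5a8, a sodium-coupled carrier of short-chain fatty acids, was at -0.40, -5.07 and -1.54 in vehicle mice 1, 2 and 3 and at -0.07, -0.63 and -4.09 in VND3207 mice. Like Slc34a2, it was lowest in vehicle mouse 2 and VND3207 mouse 3. Aqp8, a water channel, was at -1.99, 0.34 and -0.30 and at -1.74, -1.77 and 0.69. S100g, the calcium-binding calbindin of absorptive cells, was at 1.05, 2.89 and 1.81 and at 1.40, 1.38 and 2.61. Both were highest in the mice in which Slc5a8 was lowest. Slc19a3, a thiamine carrier, was also highest in those mice, at -0.43 and -0.92. None of these 4 genes passed the test between the groups, with limma adjusted p from 0.683 to 0.919. Over all tested probes the deviations of vehicle mouse 2 and VND3207 mouse 3 from their group means correlated at 0.304, a description of libraries that share an array design.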
